A study of Homo sapiens with 12 samples.

Results

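The genes of glucose uptake, glycolysis, lactate and pyruvate handling and the glycogen branch were followed as a module of 40 genes, listed by gene symbol, with no measured value in the rule but with earlier results of these data known, and with pseudogenes left out. Each of the 40 was found as a single row among the 58307 rows of the count table that name a gene, and all 40 had enough reads to be tested in every comparison below. The values came from polyA-enriched RNA of A375 and SK-MEL-28, established human melanoma cell lines. Cells of either line received etoposide, which traps topoisomerase II on DNA, or etoposide together with rapamycin, which inhibits mTOR complex 1 and was used by the study to induce autophagy. The groups were A375 Etoposide, A375 Etoposide + Rapamycin, SK-MEL-28 Etoposide and SK-MEL-28 Etoposide + Rapamycin, with 3 libraries each and 12 in all. Etoposide was present in every group, and cells without etoposide or with rapamycin alone were not analysed here, so each treatment comparison is that of rapamycin added to etoposide. The doses and times behind the sequenced RNA are not given in the sources used here, and while the study describes its RNA-seq replicates as biological, the labels do not give the cultures they came from, so the p-values measure the spread between these libraries.

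Library depth was 28189501 to 32499337 counts. Values are given as CPM, the depth-scaled counts of edgeR with TMM library sizes, for libraries 1, 2 and 3 of a group in that order, and levels of different genes are compared per kilobase of exon. In both lines the melanocyte-lineage factor SOX10 (324.6 to 579 CPM in A375 and 166 to 419 CPM in SK-MEL-28) and S100B were present. MITF, another factor of the lineage, was at 12.1 to 20.9 CPM in A375 and 18.0 to 29.7 CPM in SK-MEL-28. The pigment genes PMEL, MLANA, TYR, DCT and TYRP1 were each under 3 CPM in every library. SK-MEL-28 is known as a line that expresses pigment genes, so these pigment genes go against that label. SOX10, S100B and MITF were present under both labels, so they do not tell which line the libraries came from. The identity of the line labelled SK-MEL-28 was not settled here. Below, A375 and SK-MEL-28 stand for the libraries so labelled. The summed level of markers of leukocytes stayed at or under 0.819 CPM, of endothelial cells at or under 9.36 CPM, of keratinocytes and other epithelia at or under 10.6 CPM and of fibroblasts at or under 43.8 CPM, the last mostly PDGFRB and LUM. Mitochondrially encoded genes took 4.15% to 4.50% of the counts in A375 with etoposide and 3.31% to 3.53% with rapamycin added, against 4.66% to 5.06% and 4.49% to 4.58% in SK-MEL-28, and the part of this shift in the results below was not tested. Gene positions are in GRCh38 (GENCODE release 44). Where a second gene name shared the locus of a member, the member's row held 79.8% of the counts there for ENO2, 91.9% for PFKFB4 and at least 97.5% for the others, and the sources used here do not give the rule by which shared reads went to one row or the other.

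Glycolysis converts glucose to pyruvate in the cytosol. Glucose enters through the SLC2A carriers, hexokinases and phosphofructokinase commit it, aldolase splits the sugar, and the enzymes from GAPDH to pyruvate kinase harvest ATP and NADH. Pyruvate is then reduced to lactate by lactate dehydrogenase and exported, or imported into mitochondria and oxidised by the pyruvate dehydrogenase complex, which the PDK kinases switch off. Many of these genes are textbook targets of the hypoxia-inducible factors and of MYC, and mTOR complex 1 is known to raise HIF1A translation. Melanoma cells, like many tumour cells, are known for strong glycolysis even when oxygen is present.

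Hypoxia-inducible factors bind DNA at a short core that contains ACGTG or GCGTG, and MYC and related factors bind the E-box CACGTG, so the promoters of 5 members are shown, chosen with their values known: 4 that were called lower with rapamycin in SK-MEL-28 and passed as lower in A375 (ALDOC, PDK1, PGK1 and LDHA) and LDHB, the partner of LDHA, which did not pass the test in either line. Each is the 250 bases before the RefSeq transcription start, read 5′ to 3′ on the strand of the gene in GRCh38.p14, with every ACGTG on either strand in capitals (CACGTG reads the same on both strands and holds ACGTG on each). The windows are chr17:28576896-28577145, minus strand, for ALDOC, chr2:172555840-172556089, plus strand, for PDK1, chrX:78103998-78104247, plus strand, for PGK1, chr11:18394313-18394562, plus strand, for LDHA, and chr12:21657843-21658092, minus strand, for LDHB.
ALDOC: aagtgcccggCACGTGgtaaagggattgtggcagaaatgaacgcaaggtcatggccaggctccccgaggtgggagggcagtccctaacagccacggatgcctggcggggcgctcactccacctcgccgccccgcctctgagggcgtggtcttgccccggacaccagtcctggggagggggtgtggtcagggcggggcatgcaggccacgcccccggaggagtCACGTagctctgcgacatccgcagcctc
PDK1: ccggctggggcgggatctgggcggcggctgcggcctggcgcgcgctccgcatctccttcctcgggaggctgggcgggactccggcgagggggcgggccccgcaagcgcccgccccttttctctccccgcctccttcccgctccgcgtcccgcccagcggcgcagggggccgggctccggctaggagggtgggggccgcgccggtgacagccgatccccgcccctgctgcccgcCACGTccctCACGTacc
PGK1: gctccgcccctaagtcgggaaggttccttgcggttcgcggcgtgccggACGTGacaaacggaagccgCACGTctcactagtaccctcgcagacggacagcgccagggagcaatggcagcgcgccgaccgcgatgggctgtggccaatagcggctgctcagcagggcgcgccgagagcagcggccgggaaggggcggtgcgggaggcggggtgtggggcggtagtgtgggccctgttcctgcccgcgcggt
LDHA: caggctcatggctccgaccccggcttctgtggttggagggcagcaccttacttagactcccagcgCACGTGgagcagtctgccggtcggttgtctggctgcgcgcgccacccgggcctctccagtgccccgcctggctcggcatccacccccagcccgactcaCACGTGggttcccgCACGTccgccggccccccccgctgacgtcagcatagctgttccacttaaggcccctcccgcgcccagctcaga
LDHB: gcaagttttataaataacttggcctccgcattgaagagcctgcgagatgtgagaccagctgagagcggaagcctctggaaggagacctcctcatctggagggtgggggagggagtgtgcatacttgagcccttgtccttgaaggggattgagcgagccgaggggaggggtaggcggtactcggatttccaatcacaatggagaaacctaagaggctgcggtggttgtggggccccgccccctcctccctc
RefSeq gave a promoter near the main annotated start for 35 of the 40 members (not for PFKFB2, PFKM, PGAM1, SLC16A1 and SLC2A3). ACGTG, searched on both strands, occurred in 17 of these 35 windows (48.6%), against 21.0% of 14732 promoters of the same length, 1 per gene. GCGTG occurred in 45.7% of the members' windows and 41.0% of all, and CACGTG, which overlaps ACGTG, in 17.1% and 7.96%. Among the 9 members that were called lower in SK-MEL-28 (below), 8 had a window and 7 of those held ACGTG, the exception being UGP2. Of the 19 members that passed as lower in both lines, 17 had a window and 10 held ACGTG (58.8%), and PDK4, called in A375, did not. Among the 8 members that passed the test in neither line, 7 had a window and 3 held ACGTG (42.9%). These are matches of letters in a window and were not tested as binding sites.

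To ask which of these genes responded to rapamycin, each line was fitted alone with the quasi-likelihood test of edgeR, and p-values were adjusted over all genes by Benjamini-Hochberg. A gene passed at an adjusted p under 0.05 and was called when its fold change also exceeded 1.5, the thresholds of the study, and a negative log2 fold change is lower with rapamycin. In A375, 23 of the 40 members passed as lower, where 13.8% of all genes tested did, and a single member, PFKP, passed as higher, where 14.3% of all genes did. With the fold threshold, 3 members (ALDOC, PDK1 and PDK4) were called lower, against 2.8% of all genes, and none was called higher, against 3.09%. In SK-MEL-28, 28 members passed as lower, where 10.1% of all genes did, and none passed as higher, where 8.83% of all genes did. PDK2 was higher there at an unadjusted p under 0.05, and DESeq2 also gave 0 higher members in SK-MEL-28. There 9 members (HK2, ALDOC, PGK1, PGAM1, ENO2, LDHA, PDK1, PDK3 and UGP2) were called lower, against 3.14% of all genes, and none higher, against 1.85%.

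The 40 members had a median log2 fold change of -0.21 in A375, where all genes tested had -0.0051, and of -0.36 in SK-MEL-28, where all genes had 0.0053. The estimate was negative in both lines for 31 of the 40 members. Passing as lower in both lines were 19 members (SLC2A3, HK1, HK2, GPI, PFKFB3, ALDOC, TPI1, PGK1, PGAM1, ENO1, ENO2, LDHA, PDK1, PDK3, PDK4, PGM1, GBE1, PYGL and UGP2), and ALDOC and PDK1 were called in both. Another 4 (SLC16A1, PFKFB2, PDHB and DLAT) passed as lower in A375 but not in SK-MEL-28, and 8 (SLC2A1, PFKL, PFKFB4, ALDOA, GAPDH, PKM, MPC1 and GYS1) in SK-MEL-28 but not in A375. PFKP passed in opposite directions. The remaining 8 (SLC16A3, PFKM, BPGM, ENO3, LDHB, PDK2, MPC2 and PDHA1) passed in neither line. Together the members took 1.71% to 1.78% of a library's counts in A375 with etoposide and 1.56% to 1.57% with rapamycin added, and 2.08% to 2.1% and 1.57% to 1.61% in SK-MEL-28. The ranges of the lines were thus apart with etoposide and overlapped with rapamycin. Without GAPDH the shares were 1.15% to 1.18% and 0.992% to 1.00% in A375, and 1.41% to 1.42% and 1.01% to 1.02% in SK-MEL-28. The lines then stayed apart with rapamycin too. These are sums, and single members were not tested between the lines with rapamycin. In bulk RNA a lower level in every cell and fewer cells with a high level cannot be told apart.

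**Figure D1:**
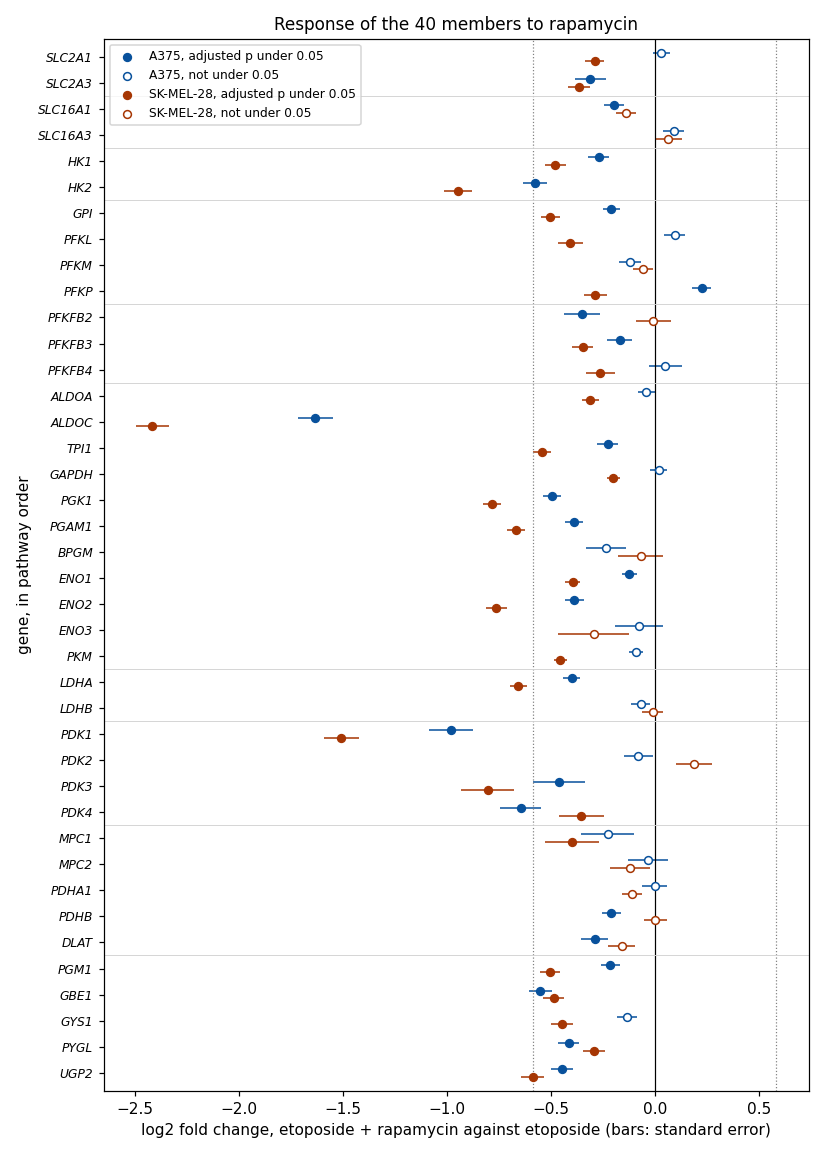
Log2 fold change of each of the 40 members, etoposide + rapamycin against etoposide (x axis), in pathway order (y axis), with 1 point per cell line and bars of 1 standard error. Most points lie left of 0, those of ALDOC (-1.63 in A375 and -2.42 in SK-MEL-28) and PDK1 (-0.98 and -1.51) farthest, while PFKP lies on opposite sides of 0.

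The members spanned a wide range of levels. With etoposide, GAPDH was highest per kilobase of exon in both lines, at 2408 ± 107 CPM per kilobase (SD, n = 3) in A375 and 2766 ± 38.5 in SK-MEL-28. ENO1 (346 ± 5.73 and 459 ± 6.84), ALDOA (327 ± 10.2 and 403 ± 19.2) and PKM (296 ± 4.09 and 342 ± 0.522) followed in the same order in both lines, and the libraries of these 4 genes did not overlap within a line. TPI1, LDHA, PGAM1, LDHB and PGK1 came next, from 104 (PGK1) to 211 (TPI1) in A375 and from 156 to 262 in SK-MEL-28, and of these TPI1 and LDHA overlapped in A375. This order depends on the length used: per kilobase of the longest transcript PKM (841 in A375 and 971 in SK-MEL-28) stood above ENO1 (708 and 940.4), and LDHA (532) above ALDOA (494) in A375, with GAPDH still the highest and PDK3 the lowest. Per kilobase of exon, the enzymes of the first steps were lower, with HK1 at 22.6 and 30.8 and PFKP at 17.1 and 20.6. Among the lowest were PDK1 (1.56 and 2.18) and, lowest of the 40 in both lines, PDK3 at 0.799 ± 0.130 and 0.882 ± 0.122.

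Glucose uptake and lactate export came first in pathway order. SLC2A1 encodes GLUT1, the widely expressed glucose carrier, at chr1:42925353-42958893, minus strand. It was at 213, 217 and 224 CPM with etoposide and 221, 222 and 223 CPM with etoposide + rapamycin in A375. SLC2A1 in SK-MEL-28 was at 263, 269 and 269 CPM with etoposide and 213, 220.3 and 223 CPM with etoposide + rapamycin. The groups overlapped in A375 and were apart in SK-MEL-28, where every library with rapamycin was lower. The log2 fold change was 0.032 ± 0.042 (SE) in A375 (adjusted p = 0.622) and -0.29 ± 0.047 in SK-MEL-28 (adjusted p = 0.000938). SLC2A3, or GLUT3, a carrier of high affinity, fell in both lines, with -0.31 ± 0.075 (adjusted p = 0.00848) and -0.36 ± 0.053 (adjusted p = 0.000409). Its reads are shared in part with near-identical sequence: SLC2A14 is a close paralog, and rows of SLC2A3 pseudogenes held 3.13% of its counts. Of the monocarboxylate carriers that export lactate, SLC16A1 (MCT1) was at 133, 135 and 142 CPM with etoposide and 121, 121 and 115 CPM with etoposide + rapamycin in A375. In SK-MEL-28, SLC16A1 was at 137, 141 and 141 CPM with etoposide and 127, 131 and 125 CPM with etoposide + rapamycin. Its groups did not overlap in either line, and its log2 fold change was -0.20 ± 0.047 (adjusted p = 0.00726), against -0.14 ± 0.048 in SK-MEL-28 (adjusted p = 0.0664). SLC16A3 (MCT4), the other exporter, had 0.092 and 0.064 and passed in neither line.

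Hexokinases trap glucose in the cell by phosphorylating it. HK2, the inducible isozyme (chr2:74834127-74893359, plus strand), fell in both lines. In A375 it was at 89.2, 82.9 and 77.3 CPM with etoposide and 56.6, 54.2 and 56.1 CPM with etoposide + rapamycin. For HK2, the SK-MEL-28 values were 119, 120.4 and 127 CPM with etoposide and 71.1, 58.1 and 61.3 CPM with etoposide + rapamycin. No library with rapamycin reached the lowest etoposide library of its line, and the SK-MEL-28 libraries with rapamycin ended just above the A375 libraries with rapamycin. The log2 fold change was -0.58 ± 0.059 in A375 (adjusted p = 2.25e-05), just short of the fold threshold, and -0.95 ± 0.069 in SK-MEL-28 (adjusted p = 1.64e-06), a level 0.519 times that with etoposide. Without A375 Etoposide replicate 3, or scaled by library totals, the A375 value became -0.63 or -0.62 and was called. HK1, the constitutive isozyme and the more abundant per kilobase, was at 159, 161 and 147 CPM with etoposide and 129, 125 and 132 CPM with etoposide + rapamycin in A375. The SK-MEL-28 libraries held 209.8, 210.0 and 216 CPM with etoposide and 157, 146 and 155 CPM with etoposide + rapamycin. Both lines had groups that were apart, and the estimates were nearer 0 than those of HK2, at -0.27 ± 0.050 (adjusted p = 0.00161) and -0.48 ± 0.050 (adjusted p = 2.98e-05).

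Glucose-6-phosphate isomerase and phosphofructokinase prepare the sugar for splitting. GPI, the isomerase, was at 380.5, 389.5 and 383 CPM with etoposide and 335, 326 and 332 CPM with etoposide + rapamycin in A375. GPI in SK-MEL-28 was at 487, 500.5 and 484 CPM with etoposide and 353, 353 and 335 CPM with etoposide + rapamycin. Its groups did not overlap in either line, and it fell by 0.21 on the log2 scale in A375 (adjusted p = 0.00203) and by 0.50 in SK-MEL-28 (adjusted p = 8.49e-06). Of the 3 phosphofructokinase subunits, PFKP moved in opposite directions in the lines. PFKP, the platelet-type subunit and the most abundant per kilobase (chr10:3066333-3137718, plus strand), was at 133, 136 and 131 CPM with etoposide and 153, 151 and 161 CPM with etoposide + rapamycin in A375. In SK-MEL-28, PFKP was at 149, 169 and 163 CPM with etoposide and 129, 134 and 133 CPM with etoposide + rapamycin. Every A375 library with rapamycin lay above every etoposide library, and every SK-MEL-28 library with rapamycin lay below. PFKP thus rose in A375 (0.23 ± 0.045, adjusted p = 0.00268) and fell in SK-MEL-28 (-0.29 ± 0.057, adjusted p = 0.00357).

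PFKL, the liver-type subunit, was at 82.4, 82.9 and 76.5 CPM with etoposide and 85.5, 83.3 and 88.7 CPM with etoposide + rapamycin in A375. For PFKL, the SK-MEL-28 values were 79.2, 87.8 and 90.7 CPM with etoposide and 62.1, 65.7 and 67.1 CPM with etoposide + rapamycin. Its groups were also apart in opposite directions, but only the fall in SK-MEL-28 passed (-0.41 ± 0.059, adjusted p = 0.000393, against 0.10 ± 0.051 and adjusted p = 0.192 in A375). PFKM, the muscle-type subunit, had -0.12 and -0.059 and passed in neither line. The PFKFB enzymes set the level of fructose-2,6-bisphosphate, the strongest activator of phosphofructokinase. PFKFB3, whose kinase activity dominates, fell by 0.35 in SK-MEL-28 (adjusted p = 0.000435) and by 0.17 in A375. In A375 it passed narrowly (adjusted p = 0.0473) and did not pass under 7 of 15 alternatives. PFKFB2 fell in A375 (-0.35, adjusted p = 0.00934) with -0.0066 in SK-MEL-28, and PFKFB4, whose locus also holds UCN2, fell in SK-MEL-28 (-0.26, adjusted p = 0.0199) with 0.051 in A375. In SK-MEL-28, PFKFB4 did not pass under 5 of 15 alternatives, with the filter of 1 count and without replicate 2 or 3 of either SK-MEL-28 group (adjusted p up to 0.102).

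ALDOC had the largest fold change of the 40 members in both lines. It encodes aldolase C, the brain-type isozyme of the enzyme that splits fructose-1,6-bisphosphate, at chr17:28573115-28576948, minus strand. In A375 it was at 70.2, 84.7 and 83.8 CPM with etoposide and 23.8, 28.4 and 24.5 CPM with etoposide + rapamycin. The SK-MEL-28 libraries held 172, 206 and 196 CPM with etoposide and 39.3, 35.3 and 33.3 CPM with etoposide + rapamycin. The highest library with rapamycin was far below the lowest etoposide library of its line. Its log2 fold change was -1.63 ± 0.085 in A375 (adjusted p = 1.37e-07) and -2.42 ± 0.079 in SK-MEL-28 (adjusted p = 5.39e-09), or 0.323 and 0.187 times the etoposide level. ALDOA, the ubiquitous isozyme, was at 1208, 1283 and 1264 CPM with etoposide and 1201, 1198 and 1239 CPM with etoposide + rapamycin in A375. ALDOA in SK-MEL-28 was at 1460, 1581 and 1592 CPM with etoposide and 1222, 1259 and 1264 CPM with etoposide + rapamycin. The A375 groups overlapped, while the SK-MEL-28 groups did not, and only SK-MEL-28 passed (-0.31 ± 0.042, adjusted p = 0.000243, against -0.041 ± 0.040 and 0.503).

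**Figure D2:**
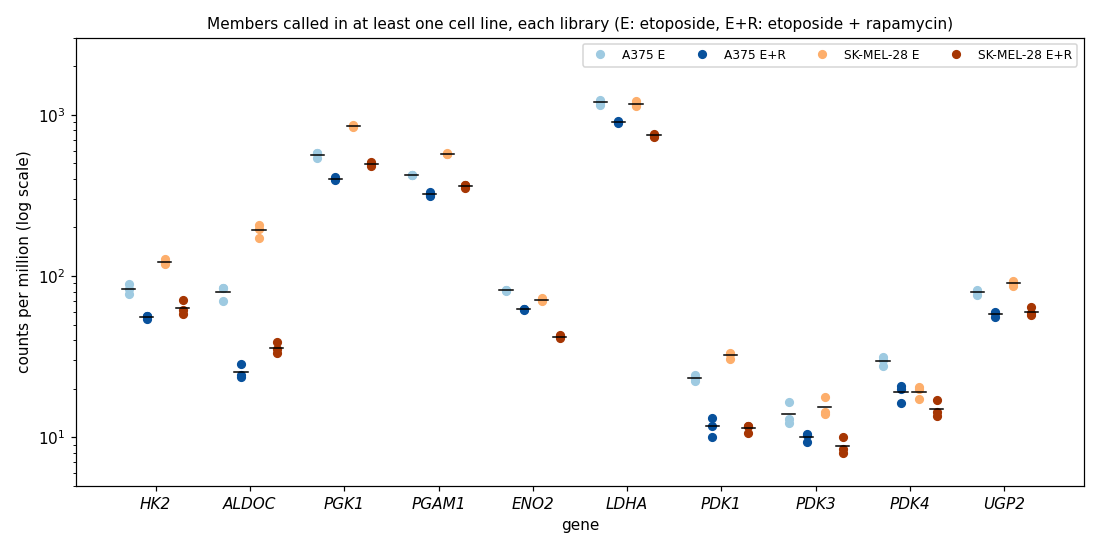
CPM (log scale, y axis) of the 10 members called in at least 1 cell line (x axis), with a point per library, a line at the mean of the 3 libraries and the groups in colour. In each gene the libraries with rapamycin lie below the etoposide libraries of the same line. For ALDOC and PDK1 the SK-MEL-28 libraries with etoposide lie above those of A375. With rapamycin those of PDK1 lie within the A375 range, and those of ALDOC stay above it.

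TPI1, triose phosphate isomerase, joins the products of aldolase. It was at 526, 599.9 and 582 CPM with etoposide and 494, 477 and 483 CPM with etoposide + rapamycin in A375. In SK-MEL-28, TPI1 was at 696, 698 and 728 CPM with etoposide and 477, 493 and 492 CPM with etoposide + rapamycin. Both lines had lower libraries with rapamycin and no overlap, with -0.23 ± 0.051 (adjusted p = 0.00546) and -0.54 ± 0.043 (adjusted p = 2.95e-06). GAPDH, the dehydrogenase that makes NADH and a common reference gene (chr12:6534512-6538374, plus strand), was at 5491, 5999 and 5817 CPM with etoposide and 5717, 5875 and 5883 CPM with etoposide + rapamycin in A375. For GAPDH, the SK-MEL-28 values were 6539, 6723 and 6620 CPM with etoposide and 5644, 5961 and 5757 CPM with etoposide + rapamycin. GAPDH groups overlapped in A375 and did not in SK-MEL-28. The fold changes were 0.019 ± 0.040 (adjusted p = 0.771) and -0.20 ± 0.029 (adjusted p = 0.000433).

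PGK1, phosphoglycerate kinase, makes the first ATP of the pathway (chrX:77910739-78129295, plus strand). It was at 541, 576 and 582 CPM with etoposide and 409, 399.6 and 392 CPM with etoposide + rapamycin in A375. The SK-MEL-28 libraries held 837, 846 and 867 CPM with etoposide and 484, 508 and 493 CPM with etoposide + rapamycin. The groups were apart in both lines. Its log2 fold change was -0.50 ± 0.044 (adjusted p = 7.54e-06) in A375 and -0.78 ± 0.042 (adjusted p = 1.25e-07) in SK-MEL-28, where it was called. PGAM1, phosphoglycerate mutase (chr10:97426191-97433444, plus strand), was at 424, 425 and 423 CPM with etoposide and 332, 316 and 319.8 CPM with etoposide + rapamycin in A375. PGAM1 in SK-MEL-28 was at 569, 568 and 581 CPM with etoposide and 368, 352 and 364 CPM with etoposide + rapamycin. Its groups were also apart in both lines, and it fell by 0.39 (adjusted p = 3.09e-05) and 0.67 (adjusted p = 6.20e-07) on the log2 scale. BPGM, which makes 2,3-bisphosphoglycerate, had -0.23 and -0.068 and passed in neither line.

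The enolases form phosphoenolpyruvate. ENO1, the ubiquitous isozyme, was at 1779, 1837 and 1798 CPM with etoposide and 1630, 1633 and 1694 CPM with etoposide + rapamycin in A375. In SK-MEL-28, ENO1 was at 2413, 2420 and 2355 CPM with etoposide and 1761, 1892 and 1825 CPM with etoposide + rapamycin. The groups did not overlap in either line, but the A375 change was small (-0.12 ± 0.038, adjusted p = 0.0302) and did not pass under 6 of 15 alternatives. The change in SK-MEL-28 was -0.39 ± 0.037 (adjusted p = 1.09e-05). ENO2, the neuronal isozyme (chr12:6913745-6923698, plus strand), was at 81.0, 82.4 and 82.5 CPM with etoposide and 62.9, 61.8 and 62.7 CPM with etoposide + rapamycin in A375. For ENO2, the SK-MEL-28 values were 73.0, 69.6 and 71.4 CPM with etoposide and 43.0, 42.2 and 41.2 CPM with etoposide + rapamycin. Groups were apart in both lines, with estimates farther from 0 than those of ENO1, at -0.39 ± 0.045 (adjusted p = 6.98e-05) and -0.76 ± 0.051 (adjusted p = 7.47e-07). Its locus overlaps rows named RPL13P5, DSTNP2 and LRRC23, and the ENO2 row held 79.8% of the counts there. ENO3, the muscle isozyme, was at 12.5 CPM on average in A375 with etoposide and 10.1 in SK-MEL-28, and passed in neither line (-0.078 and -0.29). PKM, pyruvate kinase, was at 2566, 2544 and 2498 CPM with etoposide and 2388, 2351 and 2383 CPM with etoposide + rapamycin in A375. The SK-MEL-28 libraries held 2933, 2930 and 2924 CPM with etoposide and 2159, 2119 and 2144 CPM with etoposide + rapamycin. The groups did not overlap in either line, yet only the fall in SK-MEL-28 passed (-0.46 ± 0.031, adjusted p = 8.96e-07, against -0.090 ± 0.036 and 0.0801).

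Of the lactate dehydrogenase subunits, LDHA fell in both lines and LDHB passed in neither. LDHA, the subunit that favours the making of lactate (chr11:18394560-18408425, plus strand), was at 1150, 1225 and 1202 CPM with etoposide and 903, 912 and 887 CPM with etoposide + rapamycin in A375. LDHA in SK-MEL-28 was at 1222, 1133 and 1154 CPM with etoposide and 762, 741 and 729 CPM with etoposide + rapamycin. Every library with rapamycin was below every etoposide library of its line. The log2 fold change was -0.40 ± 0.041 in A375 (adjusted p = 2.13e-05) and -0.66 ± 0.043 in SK-MEL-28 (adjusted p = 6.49e-07). LDHB, the subunit that favours the use of lactate (chr12:21635342-21757857, minus strand), was at 421, 457 and 453 CPM with etoposide and 428, 427 and 411 CPM with etoposide + rapamycin in A375. In SK-MEL-28, LDHB was at 661, 626 and 610.5 CPM with etoposide and 608, 668 and 614 CPM with etoposide + rapamycin. Its groups overlapped in both lines, with -0.067 ± 0.046 (adjusted p = 0.311) and -0.0093 ± 0.050 (adjusted p = 0.924). The promoter window of LDHA printed above held ACGTG and that of LDHB did not, a pair shown with its values known. Among members that passed as lower in both lines, 10 of 17 windows held ACGTG, and those of HK1, TPI1, ENO1, PDK4, PGM1, PYGL and UGP2 did not. Among members that passed in neither, 3 of 7 windows held it (BPGM, PDK2 and SLC16A3). Whether the match bears on the response was not tested.

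The 4 pyruvate dehydrogenase kinases keep pyruvate out of the mitochondrial oxidation by phosphorylating the dehydrogenase. PDK1 (chr2:172555373-172608669, plus strand) was called in both lines. In A375 it was at 22.3, 22.9 and 24.4 CPM with etoposide and 11.8, 13.2 and 10.1 CPM with etoposide + rapamycin. For PDK1, the SK-MEL-28 values were 33.1, 30.7 and 33.1 CPM with etoposide and 11.8, 11.8 and 10.6 CPM with etoposide + rapamycin. The SK-MEL-28 libraries started above those of A375 and ended within about the same range. Its log2 fold change was -0.98 ± 0.11 in A375 (adjusted p = 3.75e-05) and -1.51 ± 0.085 in SK-MEL-28 (adjusted p = 1.88e-07), or 0.507 and 0.352 times the etoposide level. PDK3 was at 16.5, 13.1 and 12.2 CPM with etoposide and 9.37, 10.6 and 10.4 CPM with etoposide + rapamycin in A375. The SK-MEL-28 libraries held 17.8, 13.9 and 14.4 CPM with etoposide and 10.0, 8.46 and 8.02 CPM with etoposide + rapamycin. This kinase was the least abundant of the 4 per kilobase, and its groups did not overlap in either line. It fell by 0.46 (adjusted p = 0.0151) in A375 and by 0.80 (adjusted p = 0.000734) in SK-MEL-28. In A375 it did not pass without A375 Etoposide replicate 1, without A375 Etoposide + Rapamycin replicate 1 or with the filter of 1 count (adjusted p up to 0.0599).

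PDK4 (chr7:95583499-95596516, minus strand), a kinase known to be induced by fasting, had the opposite order of the lines. In A375 it was at 31.5, 30.1 and 27.8 CPM with etoposide and 16.4, 20.7 and 19.8 CPM with etoposide + rapamycin. PDK4 in SK-MEL-28 was at 20.0, 17.2 and 20.4 CPM with etoposide and 17.2, 13.6 and 14.4 CPM with etoposide + rapamycin. The groups were apart in A375 and nearly touched in SK-MEL-28. Its fall was -0.64 ± 0.10 (adjusted p = 0.000446) in A375, where it was called, and -0.35 ± 0.11 (adjusted p = 0.0384) in SK-MEL-28. Without A375 Etoposide + Rapamycin replicate 1 the A375 value was -0.55, short of the fold threshold, and in SK-MEL-28 the adjusted p exceeded 0.05 under 5 of 15 alternatives, reaching 0.147. PDK2, another kinase of the family, was at 31.9, 33.4 and 31.1 CPM with etoposide and 30.4, 29.2 and 31.2 CPM with etoposide + rapamycin in A375. In SK-MEL-28, PDK2 was at 24.6, 25.5 and 28.6 CPM with etoposide and 29.7, 32.2 and 27.9 CPM with etoposide + rapamycin. Its groups overlapped in both lines, with -0.079 ± 0.069 (adjusted p = 0.446) and 0.19 ± 0.084 (adjusted p = 0.146).

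Of the 5 genes of the mitochondrial pyruvate carrier and the dehydrogenase itself, 2 passed as lower in A375 and 1 in SK-MEL-28, with none called. Of MPC1 and MPC2, the subunits of the carrier, MPC1 passed narrowly as lower in SK-MEL-28 (-0.40, adjusted p = 0.0477) and did not pass there under 7 of 15 alternatives. MPC2 (-0.034 in A375 and -0.12 in SK-MEL-28) passed in neither line. The E1 subunit PDHB (-0.21, adjusted p = 0.00594) and the E2 subunit DLAT (-0.29, adjusted p = 0.00498) fell in A375, and their values in SK-MEL-28 were 0.0015 and -0.16, neither past the test. PDHA1, the catalytic E1 subunit, had 0.00023 and -0.11 and passed in neither line.

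All 5 genes of the glycogen branch had negative estimates in both lines, and 4 of the 5 in A375 and all 5 in SK-MEL-28 passed as lower. UGP2 makes UDP-glucose, the donor for glycogen (chr2:63840952-63891562, plus strand). In A375 it was at 76.2, 81.8 and 80.5 CPM with etoposide and 59.8, 59.0 and 55.5 CPM with etoposide + rapamycin. For UGP2, the SK-MEL-28 values were 91.1, 86.4 and 93.4 CPM with etoposide and 64.1, 59.2 and 57.5 CPM with etoposide + rapamycin. The groups did not overlap in either line, and the falls were -0.45 ± 0.052 (adjusted p = 6.61e-05) and -0.59 ± 0.055 (adjusted p = 1.25e-05). The SK-MEL-28 value lay at the edge of the fold threshold and fell short of it under 7 alternatives (-0.58 to -0.55): without replicate 2 or 3 with rapamycin or 1 or 3 with etoposide, with the filter of 1 count, in a single fit of all libraries and with counts halved. GBE1, the branching enzyme, fell by 0.55 (adjusted p = 1.87e-05) and 0.49 (adjusted p = 3.06e-05), and PYGL, the liver-type phosphorylase that releases glucose units, by 0.41 (adjusted p = 9.44e-05) and 0.29 (adjusted p = 0.00201). Without A375 Etoposide replicate 1, or scaled by library totals, GBE1 in A375 was at -0.59 or -0.60 and was called.

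PGM1, phosphoglucomutase, links glycogen to glycolysis. In A375 it was at 85.7, 87.3 and 88.6 CPM with etoposide and 76.9, 72.0 and 75.9 CPM with etoposide + rapamycin. The SK-MEL-28 libraries held 89.6, 93.7 and 91.7 CPM with etoposide and 65.3, 64.4 and 64.7 CPM with etoposide + rapamycin. Both lines had groups apart, with -0.21 ± 0.047 (adjusted p = 0.0049) and -0.50 ± 0.046 (adjusted p = 9.44e-06). GYS1, the muscle-type glycogen synthase, was at 114, 103 and 107 CPM with etoposide and 97.5, 99.3 and 98.0 CPM with etoposide + rapamycin in A375. GYS1 in SK-MEL-28 was at 142, 142 and 137 CPM with etoposide and 104, 96.9 and 108 CPM with etoposide + rapamycin. Its libraries with rapamycin were lower in both lines, but the A375 change did not pass (-0.13 ± 0.049, adjusted p = 0.0615), while SK-MEL-28 did (-0.45 ± 0.055, adjusted p = 9.68e-05).

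Whether the response differed between the lines was tested directly, by the interaction of line and treatment in a fit of all 12 libraries. Of the 40 members, 18 passed with a lower value in SK-MEL-28, where 2.97% of all genes tested did, and none passed with a higher value, where 2.66% did. At an unadjusted p under 0.05, 3 members (PFKFB2, PDK2 and PDHB) had a higher value, and DESeq2 gave 0 higher and 20 lower. The median difference was -0.21 on the log2 scale over the members and 0.018 over all genes tested, and the estimate was more negative in SK-MEL-28 for 29 of the 40. The 18 ran through the pathway from uptake (SLC2A1) over HK2, GPI, PFKL and PFKP to nearly every step from aldolase to pyruvate kinase (ALDOA, ALDOC, TPI1, GAPDH, PGK1, PGAM1, ENO1, ENO2 and PKM), LDHA, PDK1 and, in the glycogen branch, PGM1 and GYS1. Their differences ran from -0.78 to -0.21, with adjusted p from 0.000117 (PKM) to 0.0382 (HK2). ALDOC differed by -0.78 ± 0.13 (adjusted p = 0.00187) and PDK1 by -0.52 ± 0.13 (adjusted p = 0.0316). PFKP, which moved in opposite directions, differed by -0.50 ± 0.070 (adjusted p = 0.000555), and PFKL by -0.49 ± 0.082 (adjusted p = 0.00219). PKM differed by -0.36 ± 0.042.

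None of the members of the pyruvate carrier and dehydrogenase, of the PFKFB enzymes or of the lactate exporters passed this test. PDK2 and PDK4 had positive differences (0.28 ± 0.10 and 0.30 ± 0.15, adjusted p = 0.139 and 0.283), as had LDHB (0.066 ± 0.067, adjusted p = 0.647). Of the 18, 12 passed in every alternative, and GAPDH, LDHA, GYS1, HK2, PGM1 and PDK1 did not pass in at least 1. HK2 was the least stable, not passing under 11 of 20, with an adjusted p up to 0.104, without A375 Etoposide replicate 3. PDK1, not passing under 9 of 20, reached 0.0869 with the replicate number as a block.

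**Figure D3:**
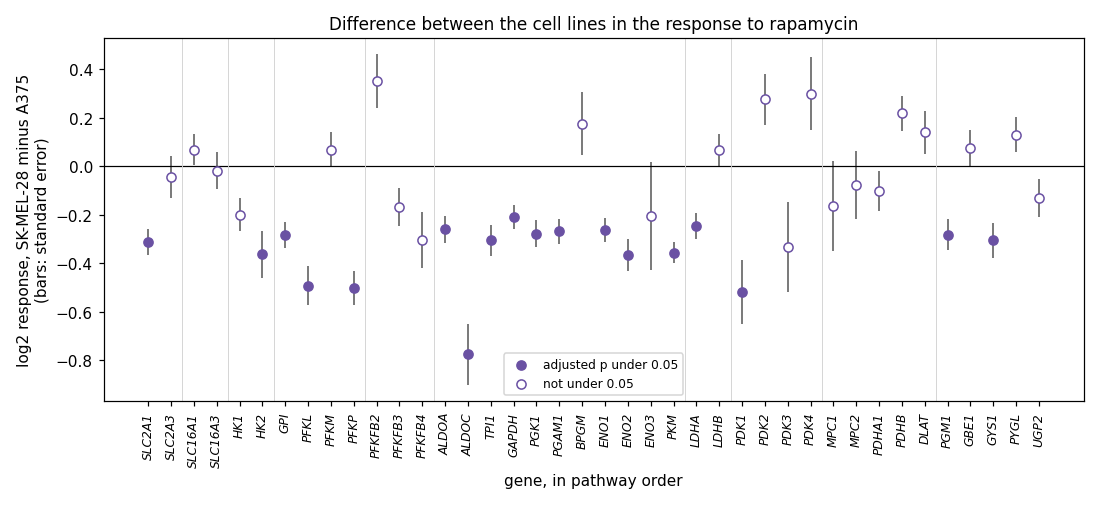
Difference of the log2 responses to rapamycin, SK-MEL-28 minus A375 (y axis), for the 40 members in pathway order (x axis), with bars of 1 standard error, filled points for members that passed the interaction test and open points for the others. The 18 that passed all lie below 0, from -0.78 for ALDOC to -0.21 for GAPDH.

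The lines also differed without rapamycin. Under etoposide, 22 members passed as higher in SK-MEL-28 than in A375 and 8 as lower, where 15.2% and 16.5% of all genes tested did. With the fold threshold, SLC2A3, ALDOC and PGK1 were called higher, against 5.7% of all genes, and PDK4 was called lower, against 7.32%. ALDOC was at 192 CPM on average in SK-MEL-28 and 79.6 in A375 (1.27 ± 0.081, adjusted p = 1.00e-07). SLC2A3 was at 36.8, 34.2 and 38.6 CPM in A375 and 70.5, 67.0 and 71.3 CPM in SK-MEL-28, ranges that lay far apart (0.93 ± 0.065, adjusted p = 2.18e-07). PGK1 differed by 0.59 ± 0.046 (adjusted p = 6.63e-07), a call at the edge of the fold threshold that was lost without A375 Etoposide replicate 1 (0.55) or SK-MEL-28 Etoposide replicate 3 (0.58). PDK4 differed by -0.63 ± 0.087 (adjusted p = 0.000108), or -0.56 without SK-MEL-28 Etoposide replicate 2. HK2 stood at 0.56 ± 0.061, and was called without A375 Etoposide replicate 1 (0.61). LDHB was higher in SK-MEL-28 (0.51 ± 0.051, adjusted p = 5.63e-06) while LDHA had -0.027 ± 0.047 (adjusted p = 0.712). This comparison uses the etoposide libraries that are also the controls of both responses, so its values are not independent of the responses. Where the text says how the lines started and ended, it describes values, and no test related the starting levels to the responses. Line and culture cannot be told apart in it.

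Levels per kilobase of exon were compared within isozyme families. With etoposide, RNA of SLC2A1 was more abundant than that of SLC2A3. SLC2A1 was at 32.9 ± 0.814 CPM per kilobase (SD) in A375 and 40.3 ± 0.494 in SK-MEL-28, against 5.04 ± 0.305 and 9.60 ± 0.311 for SLC2A3. Glucose carriers that are not members were not compared. LDHA made up 56.8% to 57.5% of the summed LDHA and LDHB level in A375 with etoposide and 51.1% to 51.7% with rapamycin. In SK-MEL-28 these shares were 47.3% to 48.3% and 35.4% to 38.3%, so LDHB led there in every library. Measured against the longest transcript in place of all exons, the mean LDHA share was 64.9% without and 59.4% with rapamycin for A375, against 55.9% and 44.8% for SK-MEL-28, so which subunit led in SK-MEL-28 with etoposide depended on the length used, and the fall did not. ALDOC held 7.85% to 8.86% of the summed ALDOA and ALDOC level in A375 with etoposide and 2.82% to 3.36% with rapamycin added. The ALDOC share in SK-MEL-28 was 14.7% to 16.0% with etoposide and 3.72% to 4.50% with rapamycin added. HK2 held 37.4% to 39.5% of the summed HK1 and HK2 level in A375 with etoposide and 33.1% to 33.7% with rapamycin added. Its shares in SK-MEL-28 were 39.8% to 40.6% and 31.5% to 34.5%. HKDC1, which is not a member, was not in this sum. For LDHA, ALDOC and HK2 the ranges of the share with and without rapamycin were apart in both lines.

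Among the kinases of pyruvate dehydrogenase, PDK1 held 9.88% to 11.6% of the summed level of the 4 in A375 with etoposide and 5.99% to 7.83% with rapamycin added. In SK-MEL-28 its share was 17.5% to 18.4% with etoposide, above every A375 library, and 7.52% to 7.81% with rapamycin added, within the range of the A375 libraries with rapamycin. PDK2 and PDK4 held most of the level in every group. PDK4 led in A375 with etoposide, at 43.2% to 45.5%, against 38.3% to 40.6% for PDK2, an order that turned when the longest transcript was used (40.2% against 46.4% on average). With rapamycin PDK2 led in both lines, at 46.9% to 53.0% in A375 and 51.3% to 57.9% in SK-MEL-28. These shares are of RNA per length, with no test.

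**Figure D4:**
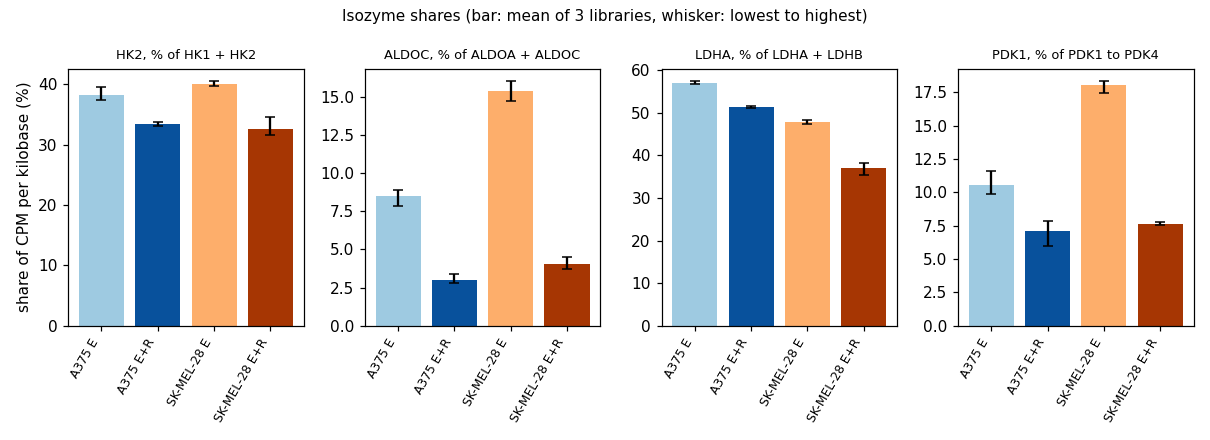
Share (%) of the summed CPM per kilobase of exon of the members of an isozyme family held by HK2, ALDOC, LDHA and PDK1 (1 panel each, y axis), by group (x axis), with bars at the mean of 3 libraries and whiskers from the lowest to the highest library. In each panel the whiskers of the etoposide and etoposide + rapamycin groups of a line do not overlap, and the share is lower with rapamycin.

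The rest of the pathway was taken from 6 lists of 86 genes that are not members: other early-step enzymes, lower-glycolysis isozymes, carriers, pyruvate-handling genes, glycogen and sugar-phosphate genes, and regulators. Of the 63 tested in A375, 20 passed as lower and 5 as higher, with 7 called lower, beside 13.8%, 14.3% and 2.8% of all genes. Of the 64 tested in SK-MEL-28, 15 passed as lower and 2 as higher, with 5 called lower, beside 10.1%, 8.83% and 3.14% of all genes. Their medians were -0.090 and -0.13. In the interaction test 4 of 65 passed with a lower value in SK-MEL-28 and 6 with a higher one, beside 2.97% and 2.66% of all genes. Read beside the same 13.8% and 10.1%, the early-step enzymes had 2 of 6 tested lower in A375 and 1 of 6 in SK-MEL-28, the lower-glycolysis isozymes 1 of 4 and 0 of 4, and the carriers 1 of 10 and 2 of 10. The pyruvate-handling genes had 6 of 10 and 4 of 10 lower, the glycogen and sugar-phosphate genes 6 of 17 and 5 of 18, and the regulators 4 of 16 and 3 of 16. Called lower in both lines were HKDC1, a hexokinase-like enzyme (-1.67 in A375 and -1.502 in SK-MEL-28), ME1, the cytosolic malic enzyme that makes pyruvate (-0.89 and -0.66), PGM2L1, which makes glucose-1,6-bisphosphate (-0.68 and -0.78), and EPAS1, which encodes HIF-2alpha (-0.85 and -1.39). For PGM2L1 the A375 call was lost without A375 Etoposide + Rapamycin replicate 3 (-0.58) or A375 Etoposide replicate 1 (-0.55).

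HIF1A, which encodes the oxygen-regulated subunit of hypoxia-inducible factor 1, fell in both lines. The fall was larger in A375 (-0.66 ± 0.041, adjusted p = 5.55e-07) than in SK-MEL-28 (-0.23 ± 0.052, adjusted p = 0.00778), a difference of 0.44 ± 0.062 (adjusted p = 0.000666). EPAS1, above, had its lower estimate in SK-MEL-28, but its difference between the lines did not pass the interaction test. Only RNA was measured, and the part of HIF1A or EPAS1 in the responses of the members was not tested. PDP1, the phosphatase that opposes the PDK kinases, also fell more in A375, with -0.84 in A375 and -0.47 in SK-MEL-28 (difference 0.38 ± 0.076, adjusted p = 0.00737). Of the other subunits of the pyruvate dehydrogenase complex, DLD fell in A375 (-0.25, adjusted p = 0.00136) with -0.018 in SK-MEL-28, and PDHX fell in A375 (-0.41, adjusted p = 0.000219) with -0.19 in SK-MEL-28 (adjusted p = 0.0526). BSG, the chaperone of the lactate exporters (-0.22, adjusted p = 0.00387), and PC, pyruvate carboxylase (-0.21, adjusted p = 0.0437), fell in SK-MEL-28, and their values in A375 were -0.062 and 0.022, neither past the test. PC passed narrowly and did not pass under 5 of 15 alternatives, 4 of them fits without a SK-MEL-28 library (replicate 2 or 3 of either group), with an adjusted p up to 0.147. TXNIP, which restrains glucose uptake, rose in A375 (0.48, adjusted p = 0.00411) with 0.18 in SK-MEL-28 (adjusted p = 0.204). PYGB, the brain-type phosphorylase, rose in both lines (0.34 and 0.41, adjusted p = 0.000105 and 3.22e-05), whereas PYGL, above, fell in both.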

How the data were processed

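RNA of 12 polyA-enriched libraries was sequenced on an Illumina NovaSeq. The authors aligned the cleaned reads to GRCh38 by HISAT2 and quantified genes by StringTie with an Ensembl annotation. They deposited raw counts, 1 column for each library, with no scaling. The step from coverage to counts is not stated, so errors here are the spread over libraries. Rows that name no gene (5, at most 0.00529% of a library's counts) were left out.

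Counts were tested with edgeR 4.0.16 in R 4.3.3 (filterByExpr with a minimum count of 10, TMM, glmQLFit and glmQLFTest), and p-values were adjusted by Benjamini-Hochberg over the genes of each fit. Standard errors were taken as |log2 fold change| over the square root of F. Each line was fitted alone, the 6 etoposide libraries together, and all 12 with an interaction. On simulated counts with 200 changed genes the test was checked first. Positions and exon lengths came from GENCODE release 44 (GRCh38), promoters from RefSeq (GRCh38.p14), using the start within 1000 bases of the MANE Select start. Replicate numbers were not used as pairs. Alternatives were DESeq2 1.42.0, other scalings, filters, thresholds and fits, and each library left out in turn.

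The members, the other lists and the rule for genes named (members called in a line, those past the interaction test and the leading isozymes in every library; other genes when called in both lines or listed beforehand by name) were chosen with earlier results of these data known. Rows of pseudogenes (105, of 12 members) stayed separate.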

Additional observations from a re-analysis of the deposited data

Results flagged for a closer look

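Responses to rapamycin that differed between A375 and SK-MEL-28, by the interaction test over all 12 libraries, were found in 18 members and in 3 named genes of the other lists, and each is given here as the log2 response in SK-MEL-28 minus that in A375. All 18 members had a lower value in SK-MEL-28: ALDOC (-0.78), PDK1 (-0.52), PFKP (-0.50), PFKL (-0.49), ENO2 (-0.37), HK2 (-0.36), PKM (-0.36), SLC2A1 (-0.31), TPI1 (-0.31), GYS1 (-0.31), GPI (-0.28), PGM1 (-0.28), PGK1 (-0.28), PGAM1 (-0.27), ENO1 (-0.26), ALDOA (-0.26), LDHA (-0.25) and GAPDH (-0.21). For PFKP the lines moved in opposite directions and both changes passed, for PFKL, SLC2A1 and GAPDH the A375 estimate was above 0 and did not pass, and for the other 14 the estimate was below 0 in both lines. The 3 other genes had the opposite sign, with the larger fall in A375: HIF1A (0.44), PDP1 (0.38) and DLD (0.24). They are those of the named genes that passed. Of all 65 tested in the other lists, 6 passed with a higher value in SK-MEL-28 and 4 with a lower one, beside 2.66% and 2.97% of all genes. Of the 20 alternatives, DLD did not pass under 11, HK2 under 11, PDK1 under 9, GAPDH under 4, PGM1 under 3, GYS1 under 2 and LDHA under 1. The other genes named in this paragraph passed under all 20.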

How the results depend on the processing

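No value of a member that passed changed sign under any alternative. The fold threshold moved the counts of members most. Without it, lower members numbered 23 in A375 and 28 in SK-MEL-28, higher members 1 in A375, and members that differed between the lines under etoposide 30. Tested against a fold change of 1.5, the lower members in SK-MEL-28 numbered 5 and the members that differed between the lines 2. Scaled by library totals, 5 were called lower in A375. With each library left out in turn, the called members numbered 2 to 4 in A375 and 8 to 9 in SK-MEL-28, those past the interaction test 14 to 18 and those that differed between the lines 3 to 4. At an adjusted p alone, 21 of 24 members in A375, 25 of 28 in SK-MEL-28, 12 of 18 in the interaction and 24 of 30 between the lines passed under every alternative. Those that did not pass under some were ENO1, PFKFB3 and PDK3 in A375 and PFKFB4, PDK4 and MPC1 in SK-MEL-28. Same-numbered libraries did not deviate together (correlations of -0.030 to 0.021), and 1 of 6 libraries correlated best with its own number. With the replicate block 3 members were called lower in A375 and 9 in SK-MEL-28 (21 and 27 at an adjusted p alone), 14 passed the interaction test and 4 were called between the lines. The median of all genes moved by under 0.1 on the log2 scale with each scaling. Measured per longest transcript, the shares of HK2, LDHA and PDK1 in their families moved by more than 1 SD and that of ALDOC did not, and each stayed lower with rapamycin. Every library held 28189501 counts or more, and every member had counts in all 12.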
